A study of Mus musculus with 27 samples.

Results

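Small RNAs in the cytoplasm of mouse primary cortical neurons (mCtx) were compared with those in the cytoplasm of a mouse neuronal progenitor cell line (mNPC). The comparison used all libraries of these 2 groups, 3 per group and 6 of the 27 libraries of the series, over all 1013 entries of the deposited table. Of these entries, 590 were above 0 in at least 1 of the 6 libraries, 222 were above 0 in all 6, and 423 were listed at 0 in all 6. The series holds 3 cell types (embryonic stem cells, mESC, besides the 2 compared here), each divided into chromatin, nucleoplasm and cytoplasm. The progenitors were a line established in the submitters' laboratory and were grown in B27 medium with EGF and FGF at 10 ng/ml. The neurons were a primary culture kept on poly-L-lysine for 5 days. No treatment, transgene or genetic change is named for either group, and the labels give no age in words. Both groups share the RNA steps: RNA under 200 nt was selected, ribosomal RNA was depleted, and libraries of 120 to 160 bp were cut from a gel. Although the labels name biological replicates, they do not say whether each came from its own culture; p-values therefore measure spread among libraries only, and that spread may be technical.

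MicroRNAs are cut from hairpin precursors, and 1 strand of the resulting duplex (the 5p or the 3p arm) is loaded into Argonaute proteins, which then pair with messenger RNAs mainly through the seed, bases 2 to 8 of the mature miRNA. Neurons are known for miR-124, miR-128, miR-132 and miR-138 and for a large imprinted miRNA cluster expressed from the maternal chromosome between Dlk1 and Dio3, whereas growing progenitors and other dividing cells are known for the miR-17 and miR-15/16 families. Transfer RNAs carry amino acids to the ribosome and are also cut into fragments. The table lists read counts scaled to library size (RPM) for each entry, so a value is a share of a library and not an amount per cell, and an entry does not tell a full-length RNA from a piece of it. In bulk samples, fewer cells of a type and less RNA per cell cannot be told apart.

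Mature sequences are shown for the miRNAs on which the results below turn: 4 abundant members of the imprinted cluster, the most abundant miRNA of the neurons, and miRNAs that share a seed and moved by different amounts, some of them in opposite directions. They come from RefSeq (GRCm38.p6), where 291 of the 335 miRNA names above 0 in any of the 6 libraries had a match, and each seed is in capitals. The first 4 lie in the imprinted domain and have 4 different seeds.
miR-127-3p: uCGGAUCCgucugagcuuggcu
miR-434-3p: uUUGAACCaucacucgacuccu
miR-410-3p: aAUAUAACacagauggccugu
miR-381-3p: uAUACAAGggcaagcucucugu
miR-128-3p is a neuronal miRNA, and miR-148a-3p was among those lower in the neurons.
miR-128-3p: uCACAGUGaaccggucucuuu
miR-148a-3p: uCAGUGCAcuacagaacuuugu
The 3 miR-181 arms share the seed ACAUUCA.
miR-181a-5p: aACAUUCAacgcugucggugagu
miR-181b-5p: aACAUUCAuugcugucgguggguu
miR-181c-5p: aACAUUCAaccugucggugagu
The 3 let-7 arms share the seed GAGGUAG.
let-7a-5p: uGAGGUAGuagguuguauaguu
let-7c-5p: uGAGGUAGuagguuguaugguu
let-7f-5p: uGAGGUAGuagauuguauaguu
The next pairs share the seeds GUAAACA (miR-30), UCACAGU (miR-27) and CCCUGAG (miR-125b and miR-351).
miR-30a-5p: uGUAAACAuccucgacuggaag
miR-30e-5p: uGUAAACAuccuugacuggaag
miR-27a-3p: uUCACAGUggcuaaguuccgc
miR-27b-3p: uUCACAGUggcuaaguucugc
miR-125b-5p: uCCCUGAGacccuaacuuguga
miR-351-5p: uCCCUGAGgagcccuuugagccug
The last 3 share the seed AGCAGCA, although miR-322-5p comes from another chromosome than the other two.
miR-15b-5p: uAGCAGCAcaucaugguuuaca
miR-16-5p: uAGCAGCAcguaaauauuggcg
miR-322-5p: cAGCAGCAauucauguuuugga

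The listed entries added up to between 948036 and 974445 RPM per library, and the read number behind a library is not given in the sources used here. Each library had its own floor, its lowest value above 0, which was 18.6, 9.31 and 8.40 RPM in mCtx replicates 1, 2 and 3 and 22.5, 28.2 and 40.6 RPM in the mNPC replicates, so an entry at 0 in mNPC may be present under those levels. One library stood apart: over the 222 entries above 0 in all 6, the log2 RPM of mCtx replicate 1 had Pearson r = 0.938 and 0.948 with replicates 2 and 3, which had r = 0.996 with each other. These are correlations across entries, which are not independent replicates. In the mNPC libraries r was 0.990 to 0.991, and between the cell types it was 0.739 to 0.778. Among the 352 entries above 0 in all 3 mCtx libraries, replicate 1 was over 2-fold above both others for 22 and over 2-fold below both for 68, and it listed 114 entries at 0 that both others had above 0. Results are therefore given with and without it where it moves them.

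Differences were tested with limma on log2(RPM + 1) over 851 entries, with Benjamini-Hochberg adjusted p under 0.05 as a call. Log2 differences below are mCtx minus mNPC on that scale. A listed 0 enters it as 0 RPM, although it may stand for any level under a library's floor. The scale may therefore overstate the change of entries at 0 in 1 group. Of the 851, 275 were called (32.3%), 183 of them higher in the neurons (21.5%) and 92 lower (10.8%). Of the 851, 305 were at 0 in all 6 libraries and passed the filter through other groups, so they could not be called, and among the other 546 the shares were 33.5% higher and 16.8% lower. The 2 directions were of different kinds: 135 of the 183 were listed at 0 in all mNPC libraries, whereas 54 of the 92 were above 0 in all 6 libraries. Among the 222 entries above 0 in all 6, 29 (13.1%) were called higher and 54 (24.3%) lower, with a median log2 difference of -0.43 and a range from -6.21 to 4.83. The median was 1.06 over the 546 and 0 over the 851. When every value under the highest floor, 40.6 RPM, was set to it, 123 entries (14.5%) were called higher and 109 (12.8%) lower, so that the higher share of calls went from 66.5% to 53.0%. Both fits together called 105 entries higher and 81 lower. Of the 183 called higher in the main fit, 63 had a mCtx mean under 40.6 RPM and were at 0 in all mNPC libraries. Without mCtx replicate 1 the counts were 202 higher and 84 lower. The 3 mCtx values lay above all 3 mNPC values for 164 entries (19.3%) and below them for 143 (16.8%).

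**Figure D1:**
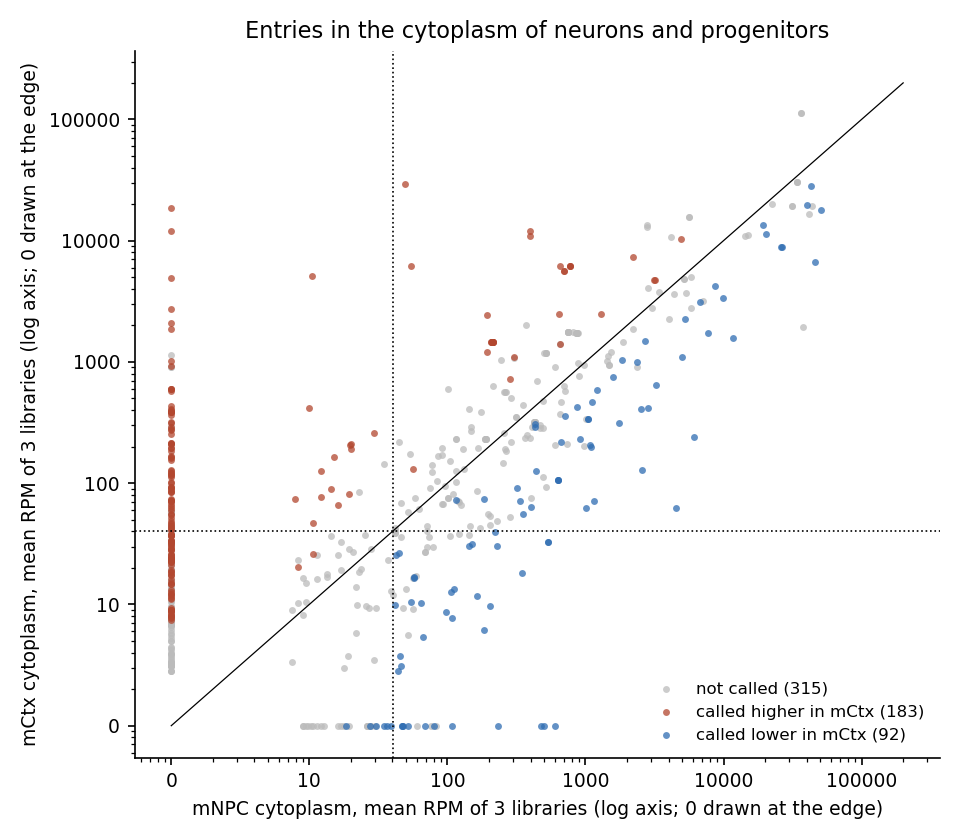
Mean RPM over 3 libraries in mNPC cytoplasm (x axis) against mCtx cytoplasm (y axis), on log axes with 0 drawn at the edge, for the 590 entries above 0 in any of the 6 libraries. Dotted lines mark 40.6 RPM, the highest floor, and the solid line marks equal values; the 183 entries called higher lie mostly in the column at 0 in mNPC, and most of the 92 called lower lie below the solid line at values above 0 in both.

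The sharpest contrast came from the imprinted miRNA domain between Dlk1 and Dio3, whose 71 entries span 180 kb of chromosome 12 (start 109563710, end 109743784, GRCm38, plus strand). Its miRNAs together took 110288, 69352 and 79222 RPM in the mCtx libraries and 166, 178 and 0 RPM in the mNPC libraries. Of its 60 tested entries, 47 were called higher in the neurons and 0 lower, and 28 were called higher with the common floor. Without mCtx replicate 1, 48 were called higher. Of the 53 entries above 0 in any of the 6 libraries, 50 were at 0 in all 3 mNPC libraries, so no entry of the domain was above 0 in all 6. The 3 mCtx values lay above all mNPC values for 36 of the 60, beside 19.3% of all 851 tested entries. Of the 60, 7 were at 0 in all 6 libraries. Over the other 53, 88.7% were called higher and the median log2 difference was 6.21, beside 33.5% and 1.06 over all 546 such entries.

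The most abundant member was miR-127-3p, an arm processed from a hairpin antisense to the retrotransposon-derived gene Rtl1 (chr12:109592888-109592909, in an exon of Mir127). It was listed at 35014, 24786 and 27717 RPM in mCtx and at 69.7, 79.1 and 0 RPM in mNPC (log2 difference 10.66, SE 1.42, limma adjusted p = 4.07e-06). All mCtx values lay far above every mNPC value. miR-410-3p, the last entry at the distal end of the domain in an exon of the noncoding gene Mirg in GENCODE (chr12:109743764-109743784), was at 25001, 14925 and 15583 RPM in mCtx and listed at 0 in every mNPC library (limma adjusted p = 6.42e-22). Both arms of the miR-434 hairpin were called: miR-434-3p was at 20954, 6619 and 8275 RPM, and miR-434-5p at 1248, 3148 and 3732 RPM, with mNPC at 0 throughout. In mCtx replicate 1 the 3p arm was the highest of the 3 libraries and the 5p arm the lowest. miR-381-3p (7783, 2880 and 4203 RPM) and miR-136-3p (1662, 2128 and 2523 RPM) were likewise at 0 in mNPC. Besides miR-127-3p, only miR-411-5p and miR-541-5p had any mNPC value above 0 among the domain's entries. miR-411-5p had 7815, 4783 and 5883 RPM in mCtx against 65.2, 98.8 and 0 RPM, and miR-541-5p had 6096, 4244 and 4885 RPM against 31.5, 0 and 0 RPM. The stem cells of the series are no part of this contrast, but their cytoplasm held these miRNAs at a summed 95578 ± 24650 RPM (SD, n = 3), near the neurons' 86287 ± 21363 RPM (SD, n = 3) and far from the progenitors' 115 ± 99.6 RPM (SD, n = 3). The progenitors' nucleoplasm and chromatin were as low, at 145 ± 96.6 and 118 ± 138 RPM (SD, n = 3). The domain's 12 snoRNA entries, grouped by coordinates, were at 0 in all 6 libraries.

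**Figure D2:**
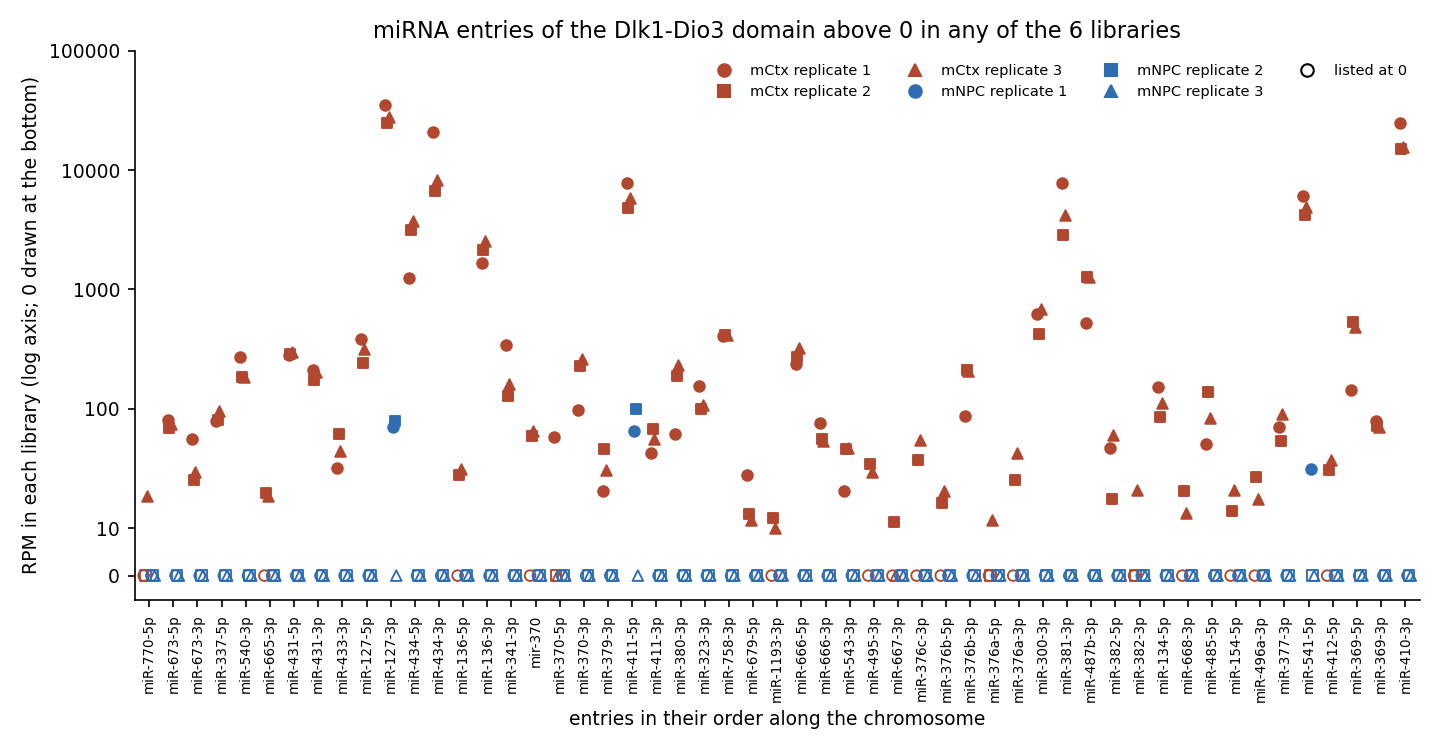
RPM in each of the 6 libraries (y axis, log scale, 0 drawn at the bottom as an open symbol) for the 53 miRNA entries of the Dlk1-Dio3 domain above 0 in any of them, in their order along the chromosome (x axis, not to scale). Red symbols are mCtx and blue are mNPC; blue symbols leave the bottom line only at miR-127-3p, miR-411-5p and miR-541-5p.

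A list of 40 entries of miRNAs commonly described as neuronal was read in the same 6 libraries. It was chosen with earlier results of these data known, so it is no independent check of the mCtx label. Of 34 tested, 27 were called higher in mCtx and 1 lower, 23 of the 40 being at 0 in all mNPC libraries, and the common floor left 20 higher and 2 lower. The shares, 79.4% higher and 2.94% lower, stand beside 33.5% and 16.8% of all tested entries above 0 in any of the 6. The median log2 difference of the 34 was 5.40, which rests on the entries at 0 in mNPC. Over the 9 above 0 in all 6 libraries it was -0.45, with 2 called higher and 1 lower. The count of higher calls was also 27 without mCtx replicate 1. With 1 mean value for entries of the same miRNA, 20 were called higher and 1 lower. The list shares miR-134, miR-380, miR-433 and miR-485 with the imprinted domain.

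miR-128-3p, which lies in introns of Arpp21 (chromosome 9, start 112118644, end 112118664) and R3hdm1 (chromosome 1), was the most abundant of the list. Its chromosome 9 entry was at 6107, 14702 and 15421 RPM in mCtx and 344, 428 and 408 RPM in mNPC (log2 difference 4.83, SE 1.00, limma adjusted p = 0.000647). The groups did not overlap, and mCtx replicate 1 was well under the other mCtx values. miR-124-3p, the best known miRNA of neurons, was at 308, 731 and 749 RPM in mCtx at its chromosome 14 entry and listed at 0 in mNPC. miR-138-5p, an inhibitor of spine growth, was at 478, 337 and 484 RPM against 0 at its chromosome 9 entry. As a mean of its 2 entries it was at 465, 330 and 461 RPM against 0, 29.7 and 0 RPM. Its chromosome 8 entry was thus above 0 in mNPC replicate 2. miR-137-3p was at 119, 169 and 180 RPM against 0. miR-218-5p, known from motor neurons, was at 118, 110 and 156 RPM against 0 at its chromosome 11 entry. miR-132-3p, which is induced by neuronal activity, had 2579, 1857 and 1585 RPM in mCtx and 270, 370 and 475 RPM in mNPC. Its groups did not overlap, but the main fit left it uncalled (limma adjusted p = 0.0521), while the fit with the common floor called it higher (limma adjusted p = 5.61e-08). The member called lower was miR-488-3p, from an intron of Astn1, at 864, 478 and 590 RPM in mCtx against 3174, 3327 and 3288 RPM in mNPC (log2 difference -2.38, SE 0.34, limma adjusted p = 8.36e-06). miR-153-3p was below mNPC in each library too, at 26.1, 60.5 and 58.8 RPM against 178, 237 and 266 RPM, and was called lower only with the common floor. Neither miR-384 arm was called, and miR-384-5p had 130, 249 and 281 RPM against 268, 330 and 264 RPM.

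Among miRNAs outside these lists, miR-182-5p and miR-183-5p, which come from 1 cluster on chromosome 6 best known from sensory cells, were called higher. miR-182-5p was at 3000, 1312 and 1307 RPM and miR-183-5p at 289, 119 and 149 RPM in mCtx, and both were at 0 in all mNPC libraries, while the cluster's other 2 tested entries were at 0 in all 6. miR-101a-3p was at 3246, 2148 and 2097 RPM in mCtx against 681, 630 and 602 RPM (log2 difference 1.94, SE 0.27, limma adjusted p = 7.75e-06). miR-204-5p (404, 346 and 455 RPM) and miR-873a-5p (237, 191 and 215 RPM) were at 0 in mNPC. The latter 3 were named after their values were seen.

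The progenitors held much more of the miR-34 family, targets of p53 that are also abundant in multiciliated cells. miR-34c-5p (chr9:51103076-51103098, minus strand) was at 41.0, 68.0 and 77.2 RPM in mCtx and 4610, 5015 and 3960 RPM in mNPC, the largest fall among the entries above 0 in all 6 libraries (log2 difference -6.21, SE 0.35, limma adjusted p = 5.46e-12). miR-34b-5p, from the same primary transcript on chromosome 9, was at 0 in mCtx and at 95.6, 67.8 and 77.2 RPM in mNPC. The miR-34a hairpin and arm entries together were at 0 in mCtx and at 157, 164 and 180 RPM in mNPC, the third value being listed under the hairpin.

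A cluster on the X chromosome was low in the neurons as well. miR-351-5p (start 53053315, end 53053338, minus strand) was at 194, 250 and 273 RPM in mCtx and 5630, 6077 and 6657 RPM in mNPC (log2 difference -4.69, SE 0.94, limma adjusted p = 0.000488). miR-322-5p, its neighbour, was at 59.6, 168 and 160 RPM against 2681, 2347 and 2640 RPM (log2 difference -4.43, SE 0.36, limma adjusted p = 2.86e-09). miR-450b-5p of the same cluster was at 0 in mCtx and at 574, 593 and 650 RPM in mNPC. The values of the 3 entries were close among the mNPC libraries and far above every mCtx value.

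miR-148a-3p, known as a regulator of DNA methyltransferases, was at 2475, 1067 and 1209 RPM in mCtx and 11336, 12135 and 11755 RPM in mNPC (log2 difference -2.99, SE 0.25, limma adjusted p = 3.45e-09). Its other arm, miR-148a-5p, fell further, from 227, 398 and 410 RPM to 18.6, 19.6 and 16.8 RPM. miR-148b-5p was called lower too, but not without mCtx replicate 1 (limma adjusted p = 0.0623). miR-421-3p, from an intron of the X-linked noncoding gene Ftx, had 261, 494 and 495 RPM against 3077, 2975 and 2437 RPM, and miR-130b-3p had 22.4, 79.1 and 87.7 RPM against 387, 405 and 418 RPM. miR-184-3p (648, 412 and 380 RPM in mNPC) and miR-670-3p (191, 232 and 276 RPM in mNPC) were at 0 in all mCtx libraries. Both groups of values were apart for each of these miRNAs.

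miR-21a, abundant in glia and in many growing cells, changed its place in the table as well as its level. miR-21a-5p was at 0, 3129 and 2743 RPM in mCtx and 41525, 39807 and 30812 RPM in mNPC, and the hairpin entry was at 3451 RPM in mCtx replicate 1 and at 0 in the other 5 libraries. Hairpin and arms summed gave 3451, 3129 and 2743 RPM in mCtx and 42050, 40422 and 31170 RPM in mNPC, a mean 12.2 times higher in mNPC with no overlap. The fit did not call this sum (log2 difference -3.60, limma adjusted p = 0.142), nor miR-21a-5p alone (limma adjusted p = 0.0507), although miR-21a-3p, at 0 in mCtx and 525, 616 and 357 RPM in mNPC, was called lower by itself. The cause was not tested. Within the 6 libraries such a switch touched 3 hairpins, those of miR-21a, miR-34a and miR-370.

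Families that share a seed did not move as blocks. In the miR-30 list, 4 of 10 tested entries were called lower (40.0%) and 0 higher, beside 10.8% and 21.5% over all 851. miR-30e-5p, from an intron of Nfyc (chr4:120772660-120772681, minus strand), was at 4653, 6745 and 8523 RPM in mCtx and 45913, 46946 and 45540 RPM in mNPC (log2 difference -2.84, SE 0.23, limma adjusted p = 3.27e-09). miR-30a-5p, which differs from it by C13U (counted from the 5′ end, miR-30a-5p first), was at 24502, 11919 and 16914 RPM against 41783, 53890 and 55589 RPM (log2 difference -1.55, SE 0.23, limma adjusted p = 1.23e-05). miR-30d-5p had 17262, 20465 and 21934 RPM against 20146, 22439 and 24241 RPM and was not called (log2 difference -0.17, SE 0.15). The neurons thus listed miR-30e-5p below miR-30a-5p and miR-30d-5p, and the progenitors did not list it below miR-30d-5p in any library.

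The miR-27 pair differs by C19U (miR-27a-3p first) and comes from different chromosomes. miR-27a-3p (chr8:84208727-84208747, plus strand) was at 50.3, 94.4 and 68.9 RPM in mCtx against 1103, 1225 and 1104 RPM in mNPC (log2 difference -4.03, SE 0.37, limma adjusted p = 2.17e-08). miR-27b-3p had 4129, 5338 and 5591 RPM against 5891, 6127 and 5294 RPM and was not called (log2 difference -0.21, SE 0.23). Their cluster partners followed the same split: miR-23a-3p was called lower (22.4, 142 and 111 RPM against 315, 350 and 301 RPM), and miR-23b-3p had 87.6, 193 and 178 RPM against 79.8, 93.2 and 142 RPM and was not. Of the 9 entries of the miR-23, miR-24 and miR-27 clusters, 5 were called lower (55.6%) and 0 higher, beside 10.8% and 21.5% over all 851. How reads that fit several near-identical miRNAs were assigned is not given in the sources used here.

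let-7, whose rise is known to accompany differentiation, did not rise as a family. Of 18 tested let-7 and miR-98 entries, 2 were called lower (11.1%) and 0 higher, beside 10.8% and 21.5% over all 851. With the common floor 8 were lower and 2 higher. let-7i-5p was called lower (28620, 13590 and 16685 RPM against 44872, 37652 and 38546 RPM, log2 difference -1.11, SE 0.25, limma adjusted p = 0.00152). let-7f-5p at its chromosome 13 entry had 20142, 15615 and 13810 RPM in mCtx against 49085, 36090 and 39876 RPM in mNPC. let-7c-5p, which differs from let-7f-5p by A12G and A19G (let-7f-5p first), had the opposite order, with 20726, 13897 and 12458 RPM against 6118, 5390 and 5485 RPM at its chromosome 16 entry. Neither was called in the main fit (limma adjusted p = 0.473 and 0.386), and both were with the common floor (limma adjusted p = 0.00319 and 0.00204). A fit on the 6 cytoplasm libraries alone called let-7f-5p lower at its chromosome 13 entry (limma adjusted p = 0.0027). let-7a-5p, 1 substitution from each (A19G from let-7a-5p to let-7c-5p, G12A from let-7a-5p to let-7f-5p), had 5638, 4847 and 4080 RPM against 5700, 4701 and 5007 RPM.

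miR-181a-5p was the most abundant entry of the mCtx libraries. It was at 102789, 115769 and 117083 RPM in mCtx and 31440, 39157 and 38057 RPM in mNPC at its chromosome 1 entry, with a near-identical value for its copy on chromosome 2. The groups were far apart, but the main fit, whose spread comes from all 9 groups, left it uncalled (log2 difference 1.63, SE 1.34, limma adjusted p = 0.486), and the common floor called it (limma adjusted p = 0.00244). A fit on the 6 cytoplasm libraries alone called it too (log2 difference 1.63, SE 0.14, limma adjusted p = 0.000195). miR-181c-5p was called higher (7390, 10825 and 12901 RPM against 4227, 5401 and 5110 RPM, log2 difference 1.05, SE 0.20, limma adjusted p = 0.000262). miR-181b-5p, which shares the seed and differs from miR-181a-5p by A9U, C10U and A21G over their common length, had 14514, 9130 and 9969 RPM against 13870, 15643 and 15426 RPM at its chromosome 2 entry and was not called. Of the 10 tested miR-181 entries 1 was called higher (10.0%) and 0 lower, beside 21.5% and 10.8% over all 851.

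miR-125b-5p and miR-351-5p share the seed CCCUGAG and had opposite orders between the cells. miR-125b-5p had 5728, 18898 and 15469 RPM in mCtx against 2903, 2808 and 2644 RPM at its chromosome 9 entry, with mCtx replicate 1 well under the others, and was called with the common floor (limma adjusted p = 5.59e-05) but not in the main fit (limma adjusted p = 0.103). A fit on the 6 cytoplasm libraries alone called it higher (limma adjusted p = 0.0138). miR-351-5p, given above, fell. miR-100-5p, from the same host region as 1 miR-125b copy, was at 77.3, 494 and 384 RPM in mCtx and at 0 in mNPC. It was the 1 of 12 tested entries of this list called higher (8.3%), and miR-125b-2-3p was the 1 called lower (8.3%). Over all 851 tested entries the shares were 21.5% higher and 10.8% lower.

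In families known from dividing cells, about as many entries were uncalled as called, and all calls but 1 were lower in the neurons. Of 10 tested miR-15 and miR-16 entries, 5 were called lower and 0 higher, with 4 lower without mCtx replicate 1. Among those above 0 in any of the 6 libraries, 5 of 9 miR-15 and miR-16 entries and 9 of 18 miR-17 cluster entries were called lower, beside 16.8% of all such entries. miR-16-5p was at 5135, 11036 and 10500 RPM in mCtx and 30540, 22404 and 25944 RPM in mNPC at its entry in an intron of Dleu2 (log2 difference -1.63, SE 0.21, limma adjusted p = 2.53e-06), and miR-15b-5p was at 50.3, 338 and 237 RPM against 1111, 1048 and 1060 RPM. Of 24 tested entries of the miR-17 clusters, 9 were called lower, 14 were not called and 1 was called higher, the latter being miR-93-3p at 0, 19.6 and 20.2 RPM against 0, under the mNPC floors. miR-25-3p had 6092, 3245 and 3275 RPM against 7618, 9525 and 9074 RPM, and miR-20a-5p had 68.0, 148 and 159 RPM against 407, 487 and 418 RPM. miR-92a-3p was called lower (limma adjusted p = 0.0128), but not without mNPC replicate 3 (limma adjusted p = 0.0543), mCtx replicate 2 (0.0540) or mCtx replicate 3 (0.0646). Both tested miR-29 entries were called lower, miR-29a-3p from 963, 1241 and 812 RPM to 0, 85.7 and 101 RPM, but neither call held without mCtx replicate 1 (limma adjusted p = 0.0546 for miR-29a-3p and 0.134 for miR-29c-3p). That of miR-29c-3p was also lost without mNPC replicate 1 (limma adjusted p = 0.0518) or 2 (0.0519).

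miR-9-5p, a miRNA of neural progenitors and neurons alike, was abundant in both cells and not called, with 46449, 23226 and 21629 RPM in mCtx and 35803, 35600 and 31380 RPM in mNPC at its chromosome 3 entry. The other arm, miR-9-3p, was called lower at 2 of its 3 entries, with 117, 485 and 408 RPM against 858, 1178 and 1080 RPM at chromosome 3. miR-26a-5p was not called either, and miR-26b-5p was lower at 860, 1059 and 1062 RPM against 2533, 2059 and 2539 RPM. The stem cell clusters miR-290 and miR-302 were at 0 in all 6 libraries.

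**Figure D3:**
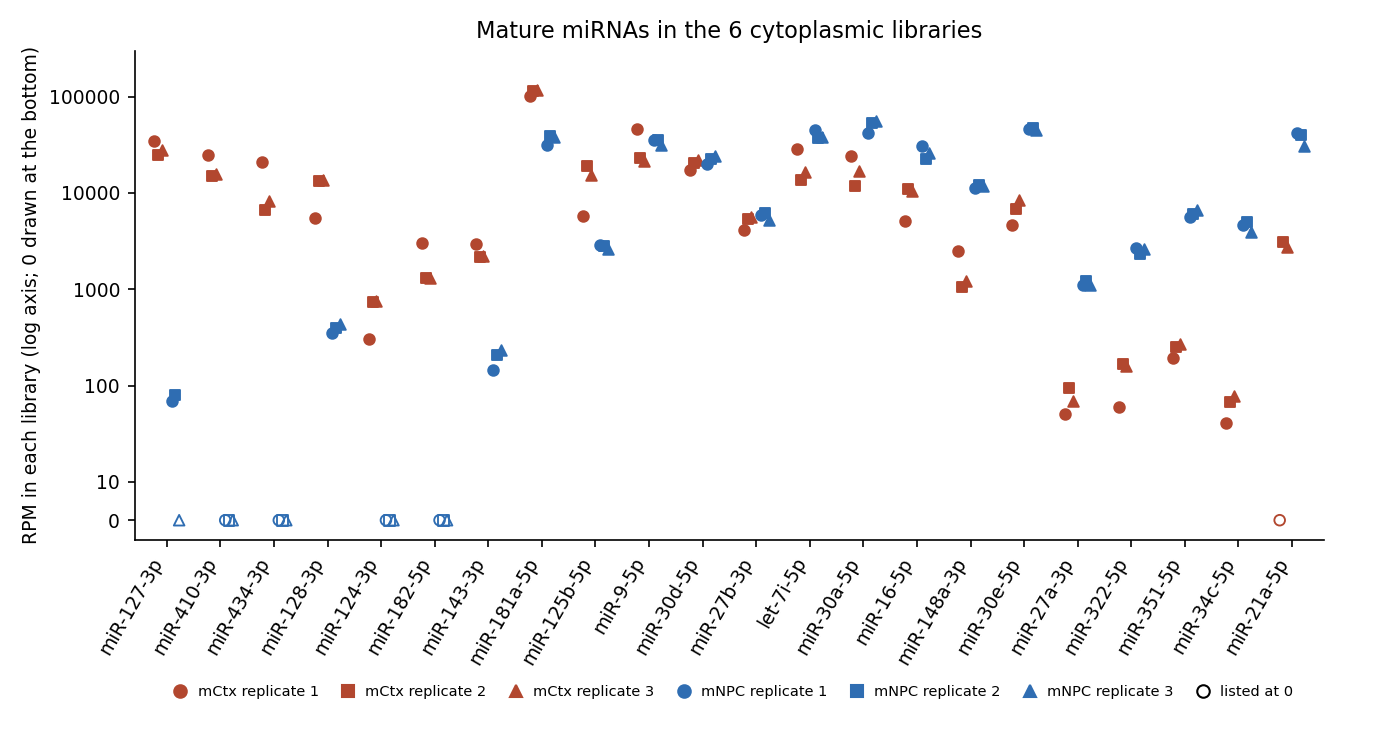
RPM in each of the 6 cytoplasmic libraries (y axis, log scale, 0 drawn at the bottom as an open symbol) for 22 mature miRNAs (x axis), with mCtx in red and mNPC in blue and 1 entry shown where a miRNA has copies. The leftmost miRNAs are near or at 0 in mNPC, miR-9-5p, miR-30d-5p and miR-27b-3p lie at like levels in both, and those to their right are lower in mCtx; mCtx replicate 1 (red circles) is often apart from the other red symbols.

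Markers of other cells were read in the same libraries. Of 8 tested entries of glial miRNAs, 4 were called lower in mCtx and 0 higher, and their summed level was 19472 to 38821 RPM in mCtx against 75394 to 86688 RPM in mNPC, most of it miR-22-3p and miR-21a-5p. In mESC cytoplasm that sum was 63070 ± 7496 RPM (SD, n = 3). There miR-22-3p was at 55067 ± 5927 RPM and the miR-219a, miR-338 and miR-146a entries were at 0. Which cells the glial sum comes from was not tested. The call of miR-22-3p (log2 difference -0.69, limma adjusted p = 0.0417) did not hold without mCtx replicate 1 (log2 difference -0.32, limma adjusted p = 0.355) or without any 1 of the mNPC replicates (limma adjusted p = 0.0588, 0.117 and 0.0909 without replicates 1, 2 and 3). miR-219a-5p, a defining miRNA of oligodendrocytes, was at 0 in mCtx and at 49.5, 50.8 and 40.6 RPM in mNPC. Of 9 tested entries of endothelial and mesenchymal miRNAs, 5 were called higher in mCtx and 0 lower, 1 of them with the common floor, and their sum was 2366 to 3108 RPM in mCtx against 250 to 345 RPM in mNPC. Most of that was miR-143-3p, a miRNA of smooth muscle and mesenchyme, at 2927, 2146 and 2225 RPM against 146, 206 and 232 RPM (log2 difference 3.65, SE 0.25, limma adjusted p = 1.09e-10). miR-126a-3p of endothelium was at 0, 25.1 and 19.3 RPM in mCtx and at 0 in mNPC. Of 7 entries of microglia and blood miRNAs, 3 were called higher and 0 lower, with sums of 2014 to 2781 RPM against 418 to 746 RPM. miR-486a-5p of red cells made up much of it (1366, 970 and 958 RPM against 326, 373 and 205 RPM), and its call (limma adjusted p = 0.0483) did not hold when any 1 of the 6 libraries was left out (limma adjusted p = 0.0658 to 0.156). miR-142a-5p of leukocytes was at 0, 33.5 and 44.5 RPM in mCtx, under or near the mNPC floors. Over all tested entries above 0 in any of the 6 libraries the shares called were 33.5% higher and 16.8% lower, and these lists are short. In mESC cytoplasm the endothelial and mesenchymal sum was 6399 ± 1114 RPM and the microglia and blood sum 3601 ± 369 RPM (SD, n = 3). Both lay above the mCtx sums, and which cells these sums come from was not tested. These markers moved with the cell type, and their part in the differences above was not tested.

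The balance of the arms was a further difference. For 20 miRNAs with both arms above 0 in all 6 libraries, the log2 ratio of 5p to 3p was computed, with entries of the same mature arm averaged and distinct arms summed, and in 13 of them (65.0%) the 3 mCtx values did not overlap the 3 mNPC values. In miR-128 the ratio was -6.56 ± 1.15 in mCtx and -2.25 ± 0.08 in mNPC (SD, n = 3), since miR-128-3p rose while miR-128-1-5p had 155, 76.4 and 83.1 RPM against 69.7, 87.5 and 93.4 RPM. In miR-125b it was 0.75, 2.03 and 1.71 in mCtx against -1.56, -1.62 and -1.86 in mNPC, so the 5p arm was the more abundant one in the neurons and the 3p arm in the progenitors. miR-322 crossed 0 the other way, at -0.77 ± 0.24 against 1.81 ± 0.28 (SD, n = 3). miR-181a had 7.76 ± 0.25 against 5.39 ± 0.16 and miR-181b 7.68 ± 0.29 against 5.65 ± 0.11 (SD, n = 3), although the level of miR-181b-5p was not called. With 3 against 3 libraries an exact permutation test of 1 ratio cannot give p under 0.1.

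Transfer RNA entries took a larger share of the cytoplasm in the neurons than in the progenitors. Their share of the listed reads was 11.3% ± 0.67 in mCtx and 4.19% ± 0.38 in mNPC (SD, n = 3), and that of miRNAs was 88.4% ± 0.66 against 95.4% ± 0.34. Neither pair of groups overlapped (exact permutation test, two-sided, p = 0.1, the smallest that 3 against 3 can give). With 1 mean value for the genes of a tRNA set (genes whose names differ in the last number only), the tRNA share was 5.46% ± 0.57 against 1.91% ± 0.19. Of 159 tested tRNA entries, 58 were called higher in mCtx and 8 lower, and 11 were at 0 in all 6 libraries. Of the other 148, 39.2% were called higher, near the 33.5% of all such entries, and 5.41% lower, beside 16.8%. The counts were 36 and 8 with the common floor, and 74 and 14 without mCtx replicate 1. With 1 mean value per set the counts were 28 and 4. The genes of a set were not always alike: in 12 of 31 sets the median gap between the lowest and the highest gene was within 1%, but it was 40.3% in tRNA-Val-CAC-2, and in tRNA-Glu-CTC-1 and tRNA-His-GTG-2 some genes were at 0 where others were not. The median log2 difference of the 148 was 1.33, beside 1.06 over all 546 entries. In mESC cytoplasm, outside this contrast, tRNA entries summed to 110176 ± 43073 RPM (SD, n = 3). That mean was near the neurons' 110310 ± 6445 RPM and above the progenitors' 39817 ± 3444 RPM (SD, n = 3).

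Valine and glycine tRNAs made most of it. With 1 mean value per set, valine tRNA entries summed to 11573, 19085 and 18054 RPM in mCtx against 2822, 2793 and 3729 RPM in mNPC, a ratio of means of 5.21. Without averaging within sets, their mean sums were 48093 and 8245 RPM. Glycine entries summed to 5730, 5005 and 5905 RPM against 1039, 1121 and 1212 RPM, a ratio of 4.93, and the mean sums without averaging were 16872 and 2913 RPM. In mESC cytoplasm the sums without averaging were 25877 ± 13029 RPM for valine and 8891 ± 2073 RPM for glycine (SD, n = 3). Both means lay between those of mCtx and mNPC. Within valine, 10 of 17 tested entries were called higher (58.8%) and 0 lower, and within glycine 15 of 22 (68.2%) and 0. Over all 851 tested entries, 21.5% were called higher and 10.8% lower. The 19 valine and 22 glycine entries of the table fall in 11 sets each, so entries of 1 set are not separate evidence. The 8 genes of tRNA-Gly-GCC-2, for example, had a median gap of 1.34%. tRNA-Val-CAC-2-5 (chromosome 13, start 23446142, end 23446214) was at 4699, 7196 and 6622 RPM in mCtx against 721, 691 and 549 RPM in mNPC (log2 difference 3.22, SE 0.42, limma adjusted p = 2.88e-06). tRNA-Gly-GCC-2-3, in an intron of Trim2 in GENCODE (chromosome 3, start 84229011, end 84229081), was at 1436, 1356 and 1581 RPM against 195, 192 and 237 RPM (log2 difference 2.81, SE 0.32, limma adjusted p = 5.01e-07).

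The other amino acids differed in size and direction. Their counts of calls stand beside 21.5% higher and 10.8% lower over all 851 tested entries. Glutamate entries had 2993, 2543 and 2981 RPM against 1337, 1216 and 1390 RPM, yet only 1 of 15 tested entries was called. Histidine entries had 3196, 1199 and 1175 RPM against 914, 836 and 648 RPM, with mCtx replicate 1 far above the others. Glutamine entries had 862, 491 and 659 RPM against 119, 0 and 0 RPM, and 5 of 6 tested were called higher. Arginine went the opposite way, at 368, 212 and 217 RPM against 1007, 1372 and 1427 RPM, a ratio of 0.209. Of its 6 tested entries 3 were called lower, all tRNA-Arg-CCT genes, and 1 higher, tRNA-Arg-CCG-2-1, at 0, 19.2 and 17.6 RPM in mCtx and 0 in mNPC, which the common floor did not call. Among the former, tRNA-Arg-CCT-2-1 was at 161, 69.3 and 88.1 RPM against 503, 695 and 714 RPM (log2 difference -2.65, SE 0.84, limma adjusted p = 0.0174). Serine entries were lower in sum (270, 314 and 261 RPM against 418, 607 and 658 RPM) although 9 of the 12 tested entries were called higher and 1 lower. Those 9 were at 0 in mNPC, and the common floor called 0 of them. Leucine and lysine entries overlapped between the cells.

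**Figure D4:**
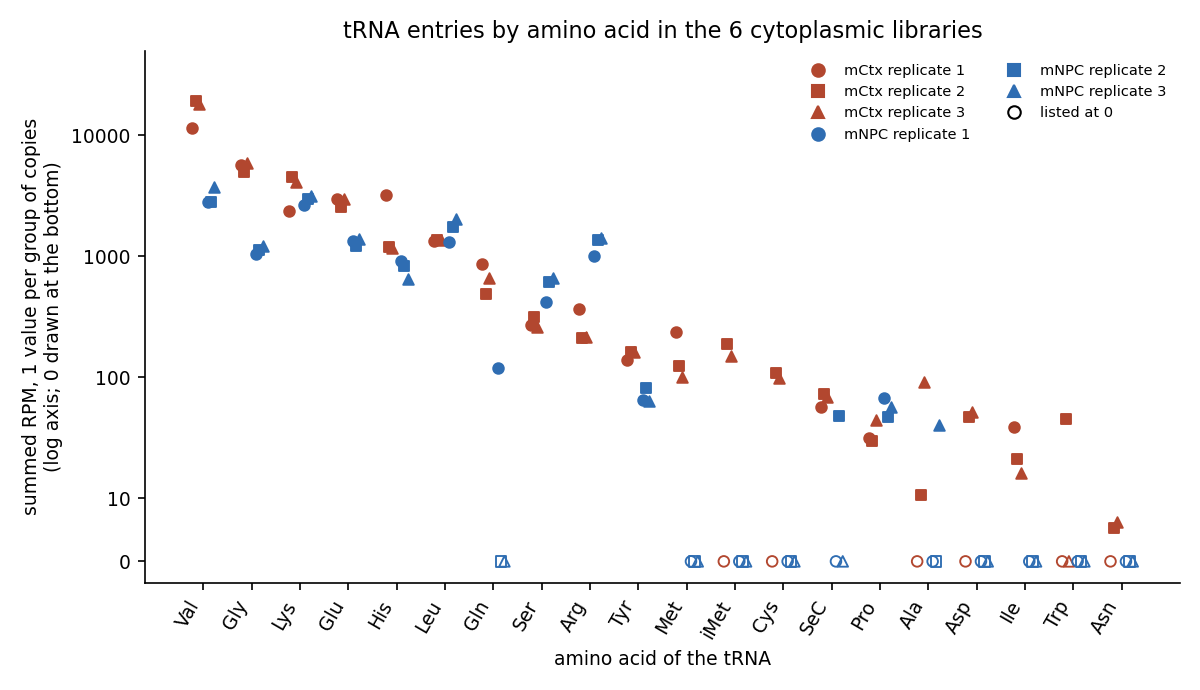
Summed RPM of tRNA entries by amino acid (x axis) in each of the 6 libraries (y axis, log scale, 0 drawn at the bottom as an open symbol), with 1 mean value for the genes of a tRNA set. Valine and glycine are about 5 times higher in mCtx (red) than in mNPC (blue), arginine and serine are lower, and leucine and lysine overlap.

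Entries of the tRNA fragment class were fewer. Of 28 tested, 2 were called higher and 2 lower, and their share was 0.0354% ± 0.0047 against 0.0603% ± 0.0106 (SD, n = 3). The 3′ fragment of tRNA-Arg-ACG-1-3 was at 50.2, 9.78 and 30.5 RPM in mCtx against 213, 247 and 229 RPM in mNPC (log2 difference -3.15, SE 0.51, limma adjusted p = 4.57e-05). The 3′ fragment of tRNA-Ala-AGC-2-1 went the other way, at 164, 121 and 94.2 RPM against 0, 36.7 and 0 RPM.

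The remaining classes were thin in these cytoplasmic libraries. Their counts of calls stand beside 21.5% higher and 10.8% lower over all 851 tested entries. Of 196 tested snoRNA entries, which guide the modification of ribosomal RNA in the nucleolus, 174 were at 0 in all 6 libraries, as were all 18 tested H/ACA box snoRNAs, and 3 were called higher and 3 lower. Snord69, in a C/D box family that directs ribose methylation, was at 24.2, 32.6 and 33.6 RPM in mCtx against 148, 147 and 138 RPM in mNPC (log2 difference -2.24, SE 0.27, limma adjusted p = 1.07e-06). The 3 called higher, Snord85, Snord64 and Gm23212, were at 15.8 to 36.9 RPM in mCtx and 0 in mNPC, and none was called with the common floor. The snoRNA share overlapped between the groups (exact permutation test, two-sided, p = 1). Among 14 tested rRNA entries 3 were called lower (21.4%) and 0 higher: the 5S entry n-R5s151 was at 0, 0 and 98.7 RPM in mCtx against 265, 1120 and 211 RPM in mNPC. These reads remained after rRNA depletion. Of 11 tested piRNA entries 1 was called, mmu_piR_000818, at 52.8, 115 and 91.5 RPM in mCtx and 0 in mNPC.

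The same contrast was then read in the other 2 fractions of both cells, and the difference between fractions was tested as an interaction. Against the nucleoplasm, 81 of 851 entries (9.52%) differed, 41 with a higher and 40 with a lower log2 difference in the cytoplasm. Against chromatin, 147 (17.3%) differed, 95 higher and 52 lower. Without mCtx cytoplasm replicate 1, the count higher against the nucleoplasm was 71. Of the 183 entries called higher in the cytoplasm, 120 were called higher in the nucleoplasm and 81 in chromatin. Of the 92 called lower, 47 and 40 were called lower there. Opposite calls were made for 3 and 0 of the 183 and for 5 and 5 of the 92. Over all 851 entries, 200 were called higher and 88 lower in the nucleoplasm, and 136 and 101 in chromatin. In the imprinted domain, miR-127-3p was called higher in mCtx in the nucleoplasm (log2 difference 8.67) and in chromatin (9.37) too, and its interactions were not called (limma adjusted p = 0.708 and 0.793). miR-434-3p, at 0 in mNPC cytoplasm, had a larger difference there than in the nucleoplasm (interaction 1.57, limma adjusted p = 0.0206) and in chromatin (2.07, limma adjusted p = 0.00184).

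Valine and glycine tRNAs were among the entries whose difference was larger in the cytoplasm. tRNA-Val-CAC-2-5 had 6172 ± 1308 RPM in mCtx cytoplasm and 653 ± 91.9 RPM in mNPC cytoplasm (SD, n = 3), but 852 ± 67.3 against 609 ± 200 RPM in the nucleoplasm and 544 ± 109 against 287 ± 85.5 RPM in chromatin. Its interaction was 2.69 against the nucleoplasm (limma adjusted p = 0.00382) and 2.28 against chromatin (limma adjusted p = 0.00997). tRNA-Gly-GCC-2-3 had 1458 ± 114 against 208 ± 25.4 RPM in the cytoplasm and 496 ± 96.3 against 475 ± 34.0 RPM in the nucleoplasm (SD, n = 3). miR-30e-5p also differed: its level was 6640 ± 1937 against 46133 ± 728 RPM in the cytoplasm and 12108 ± 1468 against 30449 ± 7890 RPM in the nucleoplasm (SD, n = 3), an interaction of -1.53 (limma adjusted p = 0.00311).

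**Figure D5:**
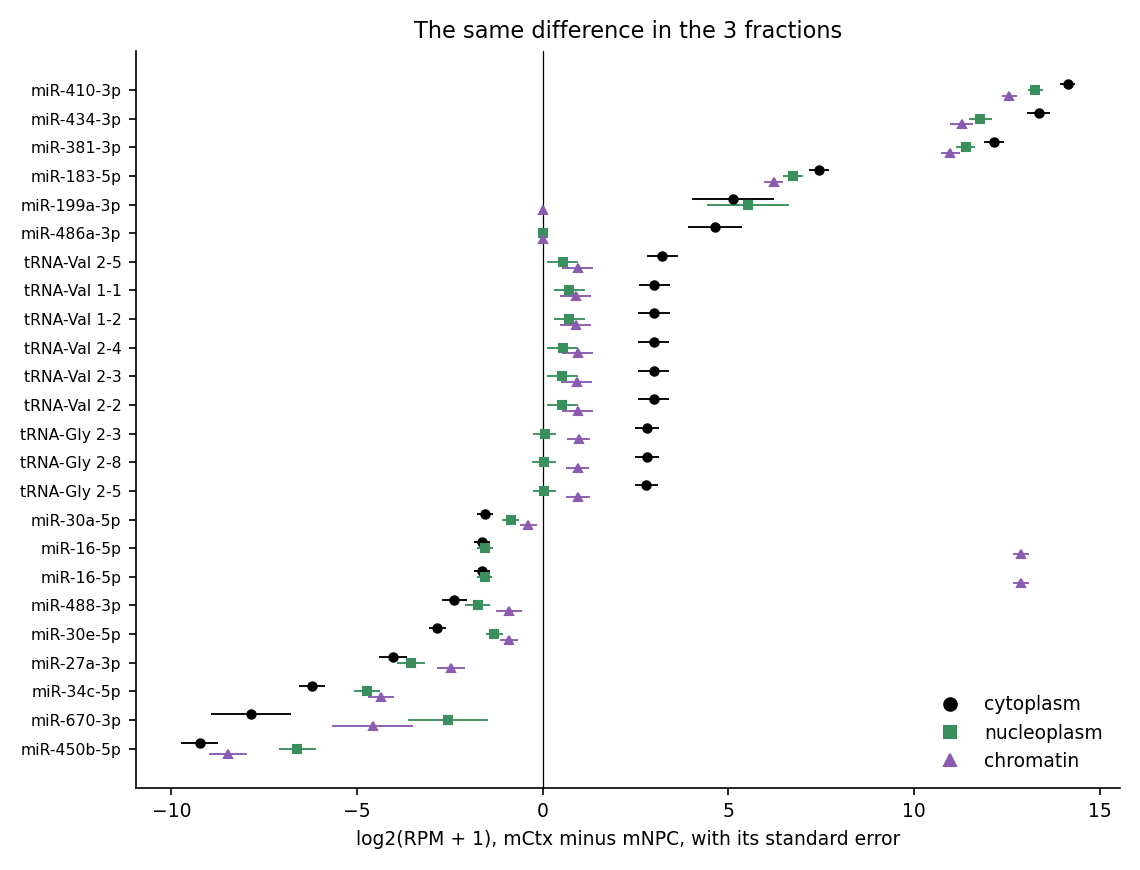
Log2 difference of mCtx minus mNPC, on log2(RPM + 1), with its standard error (x axis) in cytoplasm (black circles), nucleoplasm (green squares) and chromatin (purple triangles), for the 24 named entries (y axis) called in the cytoplasm whose difference from another fraction was called. The number after a tRNA's amino acid is that of its gene; the valine and glycine entries lie near 3 in the cytoplasm and between 0 and 1 in the other fractions, and the 2 miR-16-5p entries are far to the right in chromatin, where the mNPC libraries list the hairpin and not the arm.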

How the data were processed

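The deposited values are RPM per entry, made by the authors; aligner, build and read assignment: not given in the sources used here. The coordinates matched RefSeq GRCm38.p6 within 2 bases for 315 of 316 miRNA copies, and are given 1-based. Entries with at least 1 RPM in 3 of the 27 libraries were tested: 851 of 1013. limma 3.58.1 (R 4.3.3), with a trended, robust spread, was fitted to log2(RPM + 1) with 9 group means (18 residual degrees of freedom). The same fit was run on simulated log2 values with normal spread and no library floors, which does not check calls of entries at 0. An interaction is the cytoplasmic difference minus that of another fraction. Exact permutation tests used scipy 1.17.1. Members and lists were chosen with earlier results of these data known. Named entries are the 12 highest and 12 lowest log2 differences among entries above 0 in all 6 libraries and called with and without the common floor (the highest floor, 40.6 RPM), up to 5 per direction at 0 in 1 group, the 10 with the highest mean RPM, and the top 3 of each list; other names were added after their values were seen. Taking the lowest value as 10 reads, 60.3% to 68.6% of low values came within 0.02 of whole reads, so reads were not recovered. Alternatives changed the pseudocount, floor, filter, scaling, libraries, hairpin sums and, added after seeing the data, entries of the same miRNA or tRNA set (1 mean value) and arm ratios (distinct arms summed). The main fit treated the samples as unpaired, and whether the replicate numbers pair them was not settled.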

Additional observations from a re-analysis of the deposited data

Results flagged for a closer look

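Each entry below was called in the cytoplasm, and its difference between mCtx and mNPC also differed from that in another fraction (limma interaction, adjusted p under 0.05); values are interactions on the log2(RPM + 1) scale, cytoplasm minus the other fraction.

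Among valine tRNAs, tRNA-Val-CAC-2-5 had 2.69 against the nucleoplasm and 2.28 against chromatin. tRNA-Val-CAC-2-4 had 2.45 and 2.05, tRNA-Val-CAC-2-3 had 2.46 and 2.06, and tRNA-Val-CAC-2-2 had 2.45 and 2.04. tRNA-Val-AAC-1-1 had 2.29 and 2.12, and tRNA-Val-AAC-1-2 had 2.28 and 2.11. Among glycine tRNAs, tRNA-Gly-GCC-2-3 had 2.76 and 1.84, tRNA-Gly-GCC-2-8 had 2.77 and 1.87, and tRNA-Gly-GCC-2-5 had 2.75 and 1.85. The genes named here that belong to 1 set had close values in most libraries, so they are not separate evidence; tRNA-Val-CAC-2-5 was at 549 RPM in mNPC cytoplasm replicate 3, where tRNA-Val-CAC-2-2, tRNA-Val-CAC-2-3 and tRNA-Val-CAC-2-4 were at 907, 911 and 906 RPM.

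Among miRNAs lower in the neurons, miR-30e-5p had -1.53 against the nucleoplasm and -1.93 against chromatin, miR-450b-5p had -2.63 and miR-670-3p -5.31 against the nucleoplasm. Against chromatin, miR-34c-5p had -1.86, miR-27a-3p -1.57, miR-30a-5p -1.16 and miR-488-3p -1.47. Both miR-16-5p entries had -14.52 against chromatin. All 3 mNPC chromatin libraries list miR-16-5p at 0 and the hairpin mir-16-1 at 21219, 14449 and 13249 RPM, so this value is between an arm entry and a hairpin entry.

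Among miRNAs higher in the neurons, miR-434-3p had 1.57 against the nucleoplasm and 2.07 against chromatin. Against chromatin, miR-410-3p had 1.57, miR-381-3p 1.17, miR-183-5p 1.22 and miR-199a-3p 5.13. The cytoplasmic call of miR-199a-3p was lost with the common floor (log2 difference 0.00, limma adjusted p = 1), its values there being under that floor. miR-486a-3p had 4.65 against both, being at 0 in the other fractions of both cells.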

How the results depend on the processing

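No alternative reversed a named entry that was called in the main fit or under that alternative. Changes of sign in entries called in neither were not counted as reversals. Of the values, 1296 were on the same side of the threshold as reported, 37 passed it only under the alternative and 32 fell short. Calls were 152 to 202 higher and 76 to 92 lower when 1 library was left out. Fitted to the 6 cytoplasm libraries alone, 146 were higher and 89 lower. Among named entries, that fit lost the calls of miR-22-3p (limma adjusted p = 0.136), miR-23a-3p (0.0542) and miR-29a-3p (0.056). Restricted to the 222 entries above 0 in all 6 libraries, the fit called 37 higher and 50 lower. Of the same entries, the main fit called 29 higher and 54 lower, and the cause of this shift was not tested. With a replicate block, 185 were higher and 99 lower. Correlations of deviations between samples of equal replicate number were -0.016, -0.103 and 0.163, within -0.14 to 0.163 over all pairings. With 3 libraries per group, whose deviations sum to 0, these do not settle whether the numbers pair the samples. Against the nucleoplasm, 36 to 71 entries had a higher difference when 1 library was left out, with 71 without mCtx replicate 1. Against chromatin, 85 had a lower one with the common floor; the cause was not tested. The difference in snoRNA share, 0.0044 points, was -0.0220 with values under the common floor set to 0, and it ranged from -0.0074 (without mNPC replicate 3) to 0.0103 when 1 library was left out, while that in snRNA share, -0.0025, ranged from -0.0044 to 0.0002 (without mCtx replicate 2). Scaling to miRNA reads or to the median of shared entries shifted log2 differences by 0.077 and -0.090. Unknown depth and unequal floors limit low entries most.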
